A study of Mus musculus with 8 samples.

Results

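Bone marrow was compared between mice that had received glucose, with or without lipid, and mice that had received only phosphate-buffered saline (PBS). The cells were LSK cells (Lineage- Sca-1+ c-Kit+), a sorted fraction in which haematopoietic stem cells and multipotent progenitors are enriched. The comparison took in all 8 of the 8 libraries of the series. Of these, 2 came from the glucose group, 2 from the group given glucose together with lipid, and 4 from PBS mice. All mice were C57BL/6 males of 12 to 13 weeks that had fasted for more than 14 h before an injection and could eat freely by day. Injections into the vein ran for 7 days and carried glucose at 2 g/kg, glucose at 2 g/kg with the fat emulsion Intralipid 20% at 6 mL/kg, or PBS alone, and femurs and tibias were harvested on day 8. RNA came from about 10000 sorted cells per library. It is not stated if a library was 1 mouse or a pool, so p-values measure the spread between these libraries, some of which may be technical. No library used here came from mice given lipid alone.

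Gene levels were given as FPKM, which scales fragment numbers to the length of the transcript and the size of the library. A tag in the column names marks PBS replicates 1 and 2 and both libraries of glucose with lipid, and is missing from PBS replicates 3 and 4 and the glucose libraries, and the tag entered the model as a block. A log2 fold change below is therefore the mean of the glucose-minus-PBS difference within each tag, on the scale of log2(FPKM + 1), which understates the change of genes with low levels. The text gives it with its standard error (SE) from limma and a p-value adjusted by Benjamini-Hochberg over all 11931 genes that reached 1 FPKM in at least 2 libraries, out of 23284 gene symbols. A gene is said to have risen where the adjusted p was under 0.05.

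Library size, as estimated from the smallest steps between FPKM values, was about 5950000 to 8720000 fragments, so 1 FPKM stood for about 6 to 9 fragments per kilobase. Each library held 11186 to 11771 genes at 1 FPKM or more. Surface markers that define the LSK gate were present at similar sums in all libraries, 2343 to 2853 FPKM in the glucose-injected ones and 2335 to 2523 FPKM in the PBS ones. Kit stood at 164 to 198 FPKM in glucose-injected libraries and at 166 to 192 FPKM in PBS libraries. Replicate 1 of glucose with lipid stood apart from the other libraries. Its 14 neutrophil markers summed to 66531 FPKM, against 145 to 223 FPKM in the other 3 glucose-injected libraries and 144 to 458 FPKM in the PBS libraries, and its 16 monocyte and macrophage markers to 4984 FPKM, against 499 to 559 FPKM in the other 3 glucose-injected libraries and 429 to 481 FPKM in the PBS libraries. Its median correlation with the other libraries was 0.933, against 0.953 to 0.962 for the rest. Results that could rest on it are given below with and without it.

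**Figure D1:**
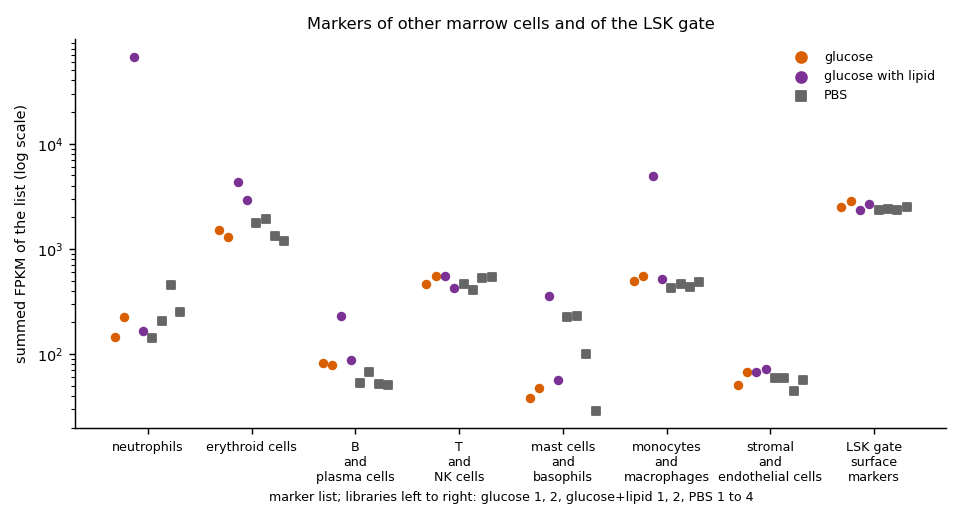
Summed FPKM (log scale) of markers of 7 other marrow cell types and of the LSK gate, 1 point per library, in the order glucose, glucose with lipid, PBS. Glucose with lipid replicate 1 is far above the others for neutrophil (66531 FPKM) and monocyte (4984 FPKM) markers, while the gate markers lie within 2335 to 2853 FPKM in all libraries.

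Many of the genes in this comparison belong to the immediate early response. In that response, signals that act through kinases such as ERK, p38 and protein kinase A phosphorylate factors already bound to promoters, among them CREB and SRF, and transcription of a set of genes begins within minutes with no need for new protein. The first products are transcription factors (FOS, JUN, EGR and NR4A proteins), and close behind them come genes that end the response: phosphatases that switch the kinases off, proteins that destroy short-lived mRNAs, and inhibitors of NF-kB. In blood stem cells, NR4A receptors, BTG proteins and the inhibitor p21 are known for their links to quiescence. Many of the same genes are also switched on when tissue is dissociated and cells are sorted.

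In LSK cells from glucose-injected mice, 32 genes rose (0.268% of the genes tested) and 0 fell (0%). Most are known members of the immediate early, stress and feedback programmes. Nr4a1, Atf3, Fos, Junb, Klf2 and Klf6 are among the transcription factors, and Dusp5, Dusp1, Sik1 and Rgs2 among brakes on signalling. Btg2 and Zfp36 are regulators of mRNA decay, Nfkbiz and Nfkbid regulators of NF-kB, and Cdkn1a and Plk2 p53 targets. The log2 fold changes ran from 0.62 for Atf4 to 2.93 for Atf3, leaving aside a microRNA gene that was listed at 0 in PBS. For 30 of the 32 genes, all 4 glucose-injected libraries lay above all 4 PBS libraries, against 3.55% of all genes tested, with 2.84% in the lower direction. For all 32, both glucose-injected libraries lay above both PBS libraries within each tag, against 5.89% of all genes, with 4.98% in the lower direction. The genes were called on the same contrast, so these counts describe them and add no support. Of the 32, 24 were members of the gene lists used here and 8 were in none. At an unadjusted p under 0.05, 737 genes lay higher (6.18%) and 623 lower (5.22%). The median log2 fold change of all genes was -0.01.

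**Figure D2:**
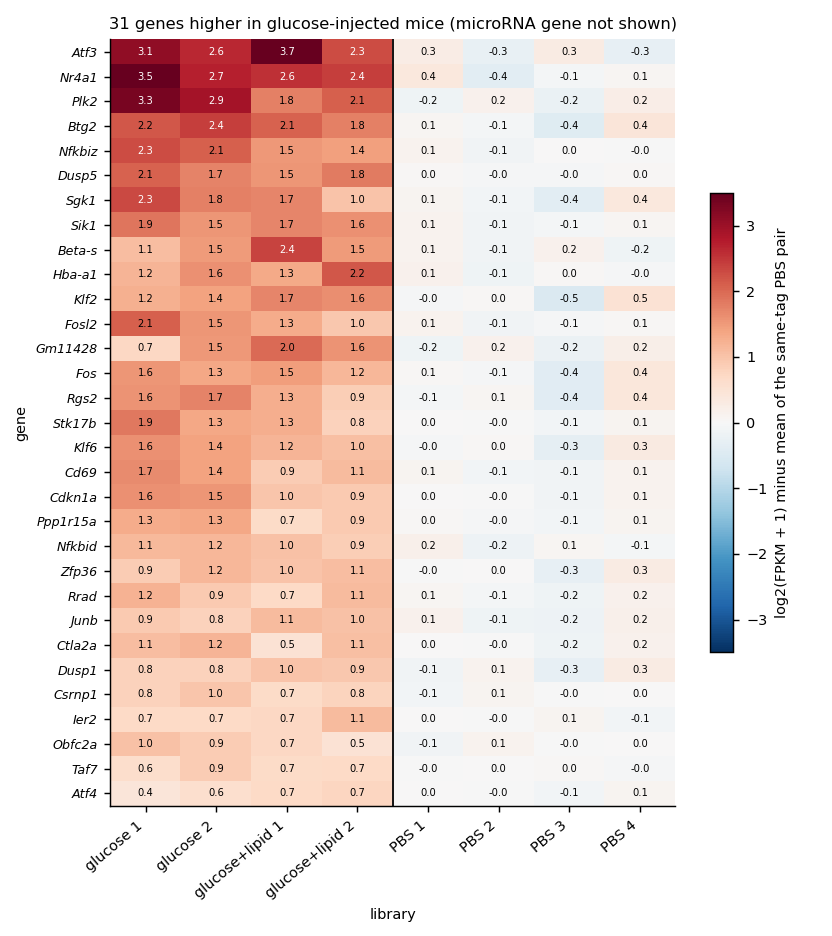
Deviation of log2(FPKM + 1) from the mean of the PBS pair with the same tag, for the 31 genes other than Mir5107 that rose, in the 4 glucose-injected libraries and then the 4 PBS libraries. The glucose-injected libraries are above that mean for every gene shown, and PBS libraries lie close to it by construction.

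The test was sensitive to single libraries. With each library left out in turn, 12 of the 32 genes passed every time: Nr4a1, Plk2, Btg2, Cdkn1a, Sik1, Dusp5, Nfkbiz, Nfkbid, Cd69, Atf3, Junb and Mir5107. The other 20 lost their call without at least 1 library. Without glucose replicate 2, 20 calls were lost and the total was 12 genes, and without PBS replicate 1, 19 were lost and the total was 13. Without PBS replicate 2 the total was 17, and in the other cases it was 22 to 32. All 32 genes kept a log2 fold change above 0 in every case. Without the library rich in neutrophil transcripts 31 genes rose, and 24 of the 32 were among them.

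Promoters of these genes were read for short motifs bound by the factors that start the immediate early response. RefSeq promoter entries matched 25 of the 32 genes. The full cyclic AMP response element (CRE), TGACGTCA, to which CREB and ATF proteins bind, occurred within 250 bases upstream of the start in 5 of the 25 (20.0%), against 268 of 8509 matched genes tested (3.15%) and 1.546% of all 32851 promoters in the table. These are shown first, with the motif in capitals, 5′ to 3′ along the gene's own strand, on GRCm38.p6. The activity of CREB in these cells was not tested.
Btg2, chr1:134079156-134079405, minus strand: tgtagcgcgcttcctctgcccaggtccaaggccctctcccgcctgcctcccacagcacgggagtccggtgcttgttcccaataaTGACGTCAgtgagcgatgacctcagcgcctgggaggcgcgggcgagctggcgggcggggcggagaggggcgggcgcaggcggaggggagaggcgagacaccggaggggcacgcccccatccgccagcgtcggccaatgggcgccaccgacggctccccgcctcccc
Plk2, chr13:110394894-110395043, plus strand: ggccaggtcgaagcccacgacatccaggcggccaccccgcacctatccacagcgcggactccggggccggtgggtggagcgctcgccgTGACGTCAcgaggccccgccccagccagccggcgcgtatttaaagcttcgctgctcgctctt
Nfkbid, chr7:30422256-30422405, plus strand: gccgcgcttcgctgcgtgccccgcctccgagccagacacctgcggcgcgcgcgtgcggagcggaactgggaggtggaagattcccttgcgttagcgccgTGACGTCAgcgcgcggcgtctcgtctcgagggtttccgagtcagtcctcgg
Ppp1r15a, chr7:45526269-45526418, minus strand: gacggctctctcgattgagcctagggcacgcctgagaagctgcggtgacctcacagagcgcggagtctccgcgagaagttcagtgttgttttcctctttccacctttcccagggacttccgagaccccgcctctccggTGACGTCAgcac
Dusp1, chr17:26508473-26508722, minus strand: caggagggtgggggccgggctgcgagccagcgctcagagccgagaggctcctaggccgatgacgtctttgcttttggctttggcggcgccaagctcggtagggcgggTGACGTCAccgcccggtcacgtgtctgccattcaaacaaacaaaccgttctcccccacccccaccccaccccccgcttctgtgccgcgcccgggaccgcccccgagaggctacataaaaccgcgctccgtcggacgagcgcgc
The first base of the motif lies 166 bases upstream of the start for Btg2, 143 for Dusp1, 62 for Plk2, 51 for Nfkbid and 12 for Ppp1r15a. RefSeq lists 3 promoters for Nfkbid, of which the other 2 hold no full element.

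The shorter core site TGACG, searched on both strands and also contained in the full element, was found in 17 of the 25 genes (68.0%), against 31.32% of the matched genes tested. Nr4a1 and Fos are shown as the receptor and the AP-1 gene that lead the next sections. Nr4a1 holds 4 core sites on the minus strand, written CGTCA, and Fos holds 2 on the plus strand, again in capitals.
Nr4a1, chr15:101266596-101266845, plus strand: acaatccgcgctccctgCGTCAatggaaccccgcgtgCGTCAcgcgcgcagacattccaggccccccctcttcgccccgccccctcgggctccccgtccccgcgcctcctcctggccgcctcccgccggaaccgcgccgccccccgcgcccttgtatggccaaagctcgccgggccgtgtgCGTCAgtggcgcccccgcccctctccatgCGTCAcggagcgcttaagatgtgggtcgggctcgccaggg
Fos, chr12:85473740-85473889, plus strand: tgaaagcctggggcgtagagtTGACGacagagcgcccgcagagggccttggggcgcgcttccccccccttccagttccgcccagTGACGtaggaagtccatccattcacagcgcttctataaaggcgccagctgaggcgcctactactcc
The AP-1 motif TGANTCA occurred in 2 of the 25 genes (8.0%), against 5.418% of those tested, the CArG box bound by SRF in 2 of the 25 (8.0%, Dusp5 and Zfp36), against 1.434%, and the kB motif of NF-kB in 20 of the 25 (80.0%), against 66.69%. All motifs were searched on both strands. A match describes letters in a window and says nothing about whether a factor was bound in these cells.

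NR4A nuclear receptors, EGR and KLF factors are described first. Nr4a1 encodes an orphan nuclear receptor that is induced within minutes of many stimuli. It stood at 304 and 177 FPKM in the glucose libraries and at 219 and 201 FPKM in those of glucose with lipid, against 47.0, 28.3, 24.8 and 27.1 FPKM in PBS replicates 1 to 4. The lowest glucose-injected library was thus far above the highest PBS library, and PBS replicate 1 was the highest of its group. The means were 225 ± 55.3 and 31.8 ± 10.2 FPKM (SD, n = 4 each), a 7.09-fold ratio, with a log2 fold change of 2.80 ± 0.22 (SE, adjusted p = 0.00146).

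The Krüppel-like factors Klf6 and Klf2, zinc finger proteins of early stress and quiescence programmes, rose as well. Klf6 stood at 99.4 and 87.0 FPKM after glucose and at 98.4 and 89.1 FPKM after glucose with lipid, against 41.3, 44.2, 25.9 and 40.7 FPKM in PBS. The glucose-injected values fell within a narrow band that did not meet the PBS values (log2 fold change 1.30 ± 0.15, adjusted p = 0.0103). Klf2 stood at 27.5 and 30.98 FPKM after glucose and 61.6 and 57.2 FPKM after glucose with lipid, against 17.5, 18.6, 7.49 and 15.97 FPKM in PBS (1.5 ± 0.20, adjusted p = 0.0204). Its values were highest with lipid, but the difference between the treatments was not called (adjusted p = 0.76 for the difference of effects). Without glucose replicate 2 or PBS replicate 1 neither gene passed (adjusted p 0.0525 to 0.109), and Klf2 also lost its call without PBS replicate 2, glucose replicate 1 or glucose with lipid replicate 2.

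Csrnp1, a nuclear protein first known as induced by AXIN1, and Ier2, an immediate early gene of unsettled molecular function, rose by 0.80 ± 0.09 (adjusted p = 0.0115) and 0.80 ± 0.10 (adjusted p = 0.0191) on the log2 scale. For Ier2 the libraries held 509.9, 518, 490.5 and 643 FPKM in glucose-injected libraries, against 299.7, 297, 339 and 296 FPKM in PBS libraries, with no overlap. Csrnp1 ranged from 25.8 to 31.8 FPKM in glucose-injected libraries and from 14.3 to 19.3 FPKM in PBS libraries. Both lost the call when some single libraries were left out (adjusted p 0.0596 to 0.109 for Ier2 and 0.0683 to 0.0702 for Csrnp1).

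Egr1, whose protein is a zinc finger factor that helps keep stem cells in the niche, stood at 345, 344, 333 and 535 FPKM in the glucose-injected libraries, against 226, 210.3, 268 and 172 FPKM in the PBS libraries. All 4 lay above all 4, yet the gene did not pass (0.82 ± 0.18, adjusted p = 0.168), and the same was true of its relative Egr2 (0.83 ± 0.19, adjusted p = 0.184) and of Nr4a2, a second NR4A receptor (1.08 ± 0.26, adjusted p = 0.225). Across the list of NR4A and immediate early factors, 5 of 18 members tested rose, against 0.268% of all genes. In this list 16 lay above 0, against 48.7% of all genes, and 11 had all 4 glucose-injected libraries above all 4 PBS libraries, against 3.55% of all genes. The median was 0.70, but 0.27 with a pseudocount of 5 in place of 1. The lists were chosen with earlier results of these data known, and they share members. Counts of list members here and below therefore describe these genes and add no independent support.

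AP-1 is a dimer of FOS, JUN and ATF family proteins. In the list of its subunits 4 of 9 members rose, against 0.268% of all genes, 7 lay above 0, against 48.7% of all genes, and the median was 0.82. Fos stood at 1102 and 951 FPKM after glucose and at 1145 and 923 FPKM after glucose with lipid, against 430.0, 400.4, 285 and 492 FPKM in PBS. The lowest value in glucose-injected libraries was well above the highest in PBS libraries (means 1030.2 ± 110.1 and 402 ± 86.9 FPKM, SD, n = 4 each, log2 fold change 1.38 ± 0.16, adjusted p = 0.0115). Leaving out PBS replicate 1 or 2 or glucose replicate 1 or 2 ended the call (adjusted p 0.0514 to 0.0667).

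Junb, the subunit that tempers JUN and restrains myeloid expansion, stood at 162, 151, 216 and 207 FPKM in the glucose-injected libraries, against 112, 90.6, 75.9 and 97.5 FPKM in the PBS libraries. It rose by 0.96 ± 0.11 (adjusted p = 0.0103), and its higher values were those with lipid. Atf3, a stress-induced ATF family member that often represses its targets, was nearly silent in PBS. It stood at 10.2, 7.24, 20.9 and 7.28 FPKM in glucose-injected libraries, against 1.04, 0.406, 0.596 and 0.0844 FPKM in PBS libraries, of which the last stands for very few fragments. The rise was 2.93 ± 0.31 (adjusted p = 0.00731). The last of the called subunits, Fosl2, ranged from 5.05 to 7.92 FPKM in glucose-injected libraries and from 1.01 to 2.63 FPKM in PBS libraries (1.47 ± 0.21, adjusted p = 0.0317), and passed only with all libraries or without glucose with lipid replicate 2.

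Another 3 subunits, those with an unadjusted p under 0.05, did not pass. Jund ranged from 48.0 to 64.4 FPKM in the glucose-injected and from 31.3 to 41.0 FPKM in the PBS libraries (0.67 ± 0.12, adjusted p = 0.102). Jun ranged from 141 to 151 FPKM in glucose-injected libraries and from 80.7 to 124 FPKM in PBS libraries (0.49 ± 0.11, adjusted p = 0.184). For Fosb the groups overlapped, with 5.76 to 12.5 FPKM in glucose-injected libraries and 4.53 to 7.36 FPKM in PBS libraries (0.82 ± 0.25, adjusted p = 0.326).

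**Figure D3:**
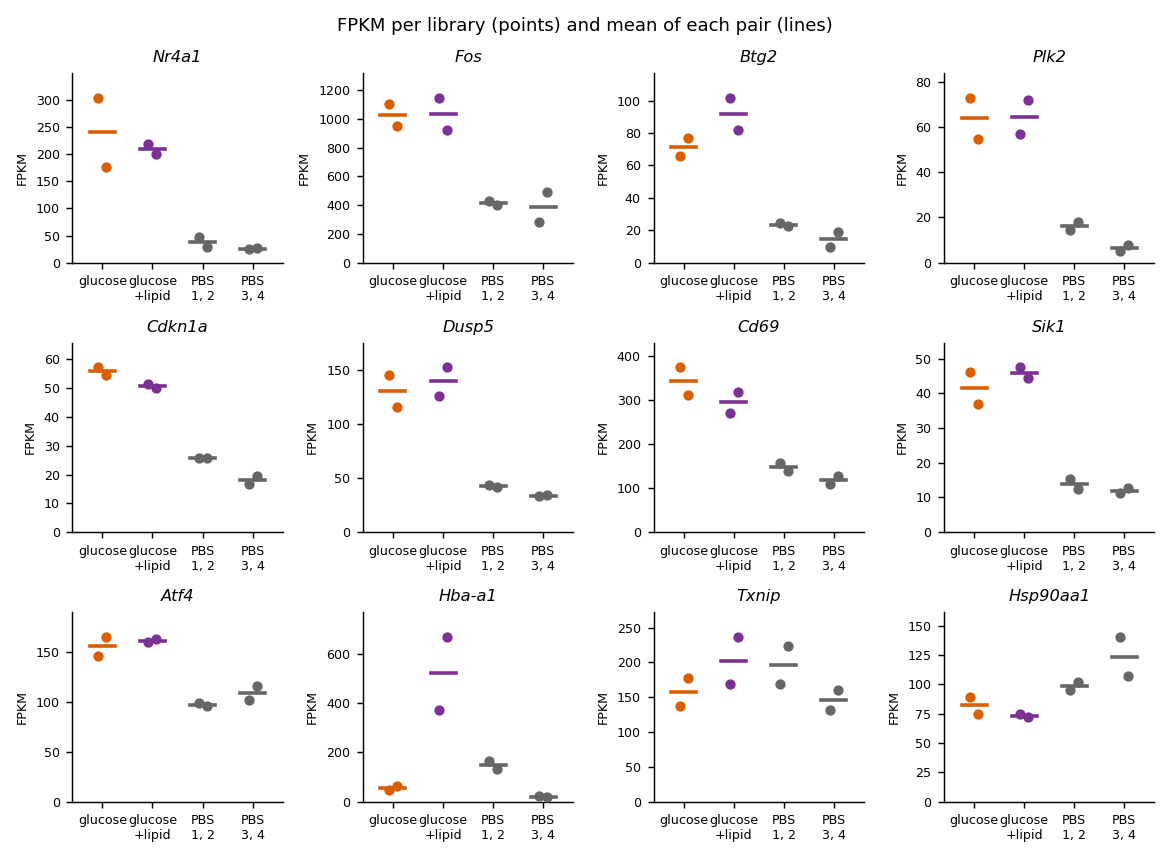
FPKM of 12 genes in each library, with a line at the mean of each pair, for glucose, glucose with lipid, PBS 1 and 2 and PBS 3 and 4. Nr4a1, Fos, Btg2, Plk2, Cdkn1a, Dusp5, Cd69, Sik1 and Atf4 lie above every PBS library in all 4 glucose-injected ones, Hba-a1 does so within each tag, Txnip does not, and Hsp90aa1 lies lower without passing the test.

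Feedback on kinase signalling was the next group. Dusp5, a phosphatase that inactivates ERK in the nucleus, had the smallest adjusted p among protein-coding genes. It stood at 145 and 115 FPKM after glucose and at 126 and 152 FPKM after glucose with lipid, against 43.9, 41.6, 33.1 and 34.5 FPKM in PBS. Both treatments reached like levels (means 135 ± 17.0 and 38.2 ± 5.26 FPKM, SD, n = 4 each, 3.52-fold, log2 fold change 1.79 ± 0.11, adjusted p = 0.000285). Dusp1, a phosphatase of p38 and JNK as well as ERK, stood at 507, 509, 694 and 665 FPKM in glucose-injected libraries, against 320.3, 376, 238 and 359 FPKM in PBS libraries (0.88 ± 0.13, adjusted p = 0.0323). It lay higher in all 4 libraries than in any PBS library, but passed in only 1 of the 8 fits that left out a library.

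Of the ERK feedback list, 2 of 12 members rose, against 0.268% of all genes, and the median was 0.15. Spry1, an inhibitor of receptor tyrosine kinase signalling, ranged from 11.8 to 17.9 FPKM in glucose-injected libraries and from 6.96 to 8.90 FPKM in PBS libraries without passing (0.86 ± 0.15, adjusted p = 0.0853). Dusp2, the phosphatase of activated lymphocytes, ranged from 301 to 609 FPKM in glucose-injected libraries and from 175 to 267 FPKM in PBS libraries (0.84 ± 0.22, adjusted p = 0.246).

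Sik1 encodes a salt-inducible kinase, itself a CREB target, that holds CREB coactivators out of the nucleus. It stood at 46.1 and 36.9 FPKM after glucose and 47.4 and 44.3 FPKM after glucose with lipid, against 15.3, 12.6, 11.3 and 12.7 FPKM in PBS. The separation was complete and alike in both treatments, with a log2 fold change of 1.70 for glucose and 1.66 with lipid (pooled 1.68 ± 0.11, adjusted p = 0.000421). Rgs2, a brake on G protein signalling, stood at 72.1, 81.1, 80.3 and 60.0 FPKM in glucose-injected libraries, against 31.01, 33.8, 17.8 and 31.5 FPKM in PBS libraries (1.36 ± 0.19, adjusted p = 0.0317), and lost its call in 5 of the 8 fits without 1 library (adjusted p 0.0649 to 0.132).

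Other CREB targets were mixed. The list had 2 of 15 members risen, against 0.268% of all genes, and a median of 0.12. Per1, a clock gene with CRE sites, ranged from 10.9 to 17.6 FPKM in glucose-injected libraries and from 6.22 to 9.93 FPKM in PBS libraries (0.74 ± 0.13, adjusted p = 0.0842), and Pde4b, a cyclic AMP phosphodiesterase, from 63.2 to 74.4 FPKM in glucose-injected libraries and from 28.4 to 56.0 FPKM in PBS libraries (0.67 ± 0.15, adjusted p = 0.176). Gem, a small GTPase and also a CREB target, ran the other way, at 39.6 to 61.9 FPKM in glucose-injected libraries and 53.1 to 101 FPKM in PBS libraries (-0.75 ± 0.21, adjusted p = 0.281).

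Regulators of mRNA turnover and proliferation included Btg2, which recruits the deadenylase that shortens mRNA tails and slows the cell cycle. It stood at 65.8 and 77.2 FPKM after glucose and 102 and 81.6 FPKM after glucose with lipid, against 24.3, 22.4, 9.95 and 18.8 FPKM in PBS. Every glucose-injected library was above every PBS library by a wide gap (means 81.6 ± 14.97 and 18.9 ± 6.36 FPKM, SD, n = 4 each, log2 fold change 2.11 ± 0.19, adjusted p = 0.00275). Zfp36, which encodes tristetraprolin and marks AU-rich mRNAs for decay, stood at 405, 496, 509 and 544 FPKM in glucose-injected libraries, against 256, 257, 181 and 267 FPKM in PBS libraries. It rose by 1.03 ± 0.12 (adjusted p = 0.0124), a call that was lost without glucose replicate 2, PBS replicate 1 or PBS replicate 2 (adjusted p 0.0627 to 0.0709). In the list of the BTG and ZFP36 families, 2 of 9 members rose, against 0.268% of all genes. Of the 9 members, 8 lay above 0, against 48.7% of all genes, and the median was 0.66. Btg1, the relative of Btg2, had 14.0 to 36.3 FPKM in glucose-injected libraries and 5.02 to 11.5 FPKM in PBS libraries (1.26 ± 0.23, adjusted p = 0.108), and Zfp36l1 9.95 to 13.9 FPKM in glucose-injected libraries and 5.69 to 9.62 FPKM in PBS libraries (0.66 ± 0.14, adjusted p = 0.166).

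Plk2 and Cdkn1a are both targets of p53 and also respond to other stress signals. Plk2, a polo-like kinase of early G1, stood at 72.9, 54.9, 57.1 and 72.1 FPKM in glucose-injected libraries, against 14.5, 18.1, 5.28 and 7.66 FPKM in PBS libraries. PBS replicates 1 and 2 held more than replicates 3 and 4, so the difference was larger for glucose (3.12) than with lipid (1.92), although the treated levels were alike (pooled 2.52 ± 0.25, adjusted p = 0.00656). Cdkn1a, the gene of p21, which blocks cyclin-dependent kinases, stood at 57.1, 54.4, 51.4 and 49.9 FPKM in glucose-injected libraries, against 25.8, 25.7, 16.6 and 19.6 FPKM in PBS libraries. The treated libraries spanned only a few FPKM, and the log2 fold change was 1.26 ± 0.13 (adjusted p = 0.00731).

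Of the 20 p53 targets tested, 2 rose, against 0.268% of all genes. A log2 fold change above 0 was found for 14, against 48.7% of all genes, and the median was 0.22. Mdm2, the main feedback inhibitor of p53, stood at 34.9 to 39.0 FPKM in glucose-injected libraries and 29.5 to 33.3 FPKM in PBS libraries (0.23 ± 0.08, adjusted p = 0.376). Gadd45a, a stress sensor that p53 induces, stood at 8.66 to 23.2 FPKM in glucose-injected libraries and 5.77 to 7.71 FPKM in PBS libraries (0.70 ± 0.23, adjusted p = 0.347). Its highest value was that of glucose with lipid replicate 1, without which the change was 0.43. Among the other cell cycle inhibitors and D cyclins 0 of 13 passed, 2 were higher and 2 lower at an unadjusted p under 0.05, and the median was -0.02. Cdkn1b, the gene of p27, did not pass (0.45 ± 0.17, adjusted p = 0.391).

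A pair of NF-kB regulators of the IkB family rose, and no subunit of NF-kB passed. Nfkbiz, an atypical IkB protein that works in the nucleus, stood at 39.2, 34.1, 43.3 and 41.3 FPKM in the glucose-injected libraries, against 16.2, 13.2, 7.37 and 7.24 FPKM in the PBS libraries. As with Plk2, PBS replicates 3 and 4 were the lower pair (1.83 ± 0.15, adjusted p = 0.00246). Nfkbid, another nuclear IkB protein, stood at 48.6, 49.9, 49.3 and 44.2 FPKM in glucose-injected libraries, against 27.4, 20.9, 22.8 and 20.6 FPKM in PBS libraries. Its values hardly varied within either group (1.04 ± 0.11, adjusted p = 0.00731). In the NF-kB list 2 of 19 members rose (0.268% of all genes did), 18 lay above 0 (48.7% of all genes) and 7 had no overlap in the higher direction (3.55% of all genes). The median was 0.36. Tnfaip3, which encodes the ubiquitin-editing inhibitor A20, stood at 9.14 to 19.3 FPKM in glucose-injected libraries and 3.00 to 6.65 FPKM in PBS libraries (1.23 ± 0.26, adjusted p = 0.164), and Nfkbia, the classical IkB, at 114 to 140.0 FPKM in glucose-injected libraries and 64.7 to 101 FPKM in PBS libraries (0.57 ± 0.13, adjusted p = 0.189).

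The integrated stress response slows translation by phosphorylating eIF2alpha and favours the factor ATF4. Ppp1r15a, which brings a phosphatase to eIF2alpha and so ends the response, stood at 154, 159, 159 and 188 FPKM in glucose-injected libraries, against 102, 96.8, 58.1 and 66.6 FPKM in PBS libraries. The rise was 1.06 ± 0.12 (adjusted p = 0.0108), and the call was lost without glucose replicate 2 (adjusted p = 0.0634). Atf4 itself stood at 146, 165, 159 and 163 FPKM in glucose-injected libraries, against 98.6, 95.4, 102 and 115 FPKM in PBS libraries. Although it had the smallest log2 fold change of the genes that rose (0.62 ± 0.08, adjusted p = 0.0246), its groups did not overlap, and 6 of the 8 fits without 1 library lost the call (adjusted p 0.0642 to 0.122). Ddit3, the ATF4 target that encodes CHOP, ranged from 40.8 to 46.0 FPKM in glucose-injected libraries and from 17.96 to 30.2 FPKM in PBS libraries without passing (0.85 ± 0.17, adjusted p = 0.136). Of 13 tested members 2 rose, against 0.268% of all genes, and 10 lay above 0, against 48.7% of all genes. The median was 0.37. In the unfolded protein response of the endoplasmic reticulum 0 of 15 passed, 0 had an unadjusted p under 0.05 and the median was -0.14.

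Among the genes that rose outside these groups, Cd69 encodes the early activation marker of leukocytes, which also keeps cells in tissue by opposing the sphingosine 1-phosphate receptor S1PR1. It stood at 373, 311, 271 and 318 FPKM in glucose-injected libraries, against 156, 138, 108 and 126 FPKM in PBS libraries (1.27 ± 0.13, adjusted p = 0.00731). S1pr1 mRNA was not lower: it stood at 25.9, 23.4, 25.1 and 25.6 FPKM in glucose-injected libraries, against 15.6, 16.6, 7.84 and 11.01 FPKM in PBS libraries (0.97 ± 0.16, adjusted p = 0.0842). Its groups did not overlap, but it passed only when genes had to reach 1 FPKM in all libraries (adjusted p = 0.043). In the list on niche retention, 1 of 15 members rose, against 0.268% of all genes, and the median was 0.17.

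Sgk1, a kinase downstream of PI3K that is also induced by glucocorticoids and salt, stood at 36.8, 24.9, 36.4 and 22.02 FPKM in glucose-injected libraries, against 11.3, 9.75, 4.88 and 8.84 FPKM in PBS libraries (1.70 ± 0.24, adjusted p = 0.0317). Stk17b, a kinase linked to apoptosis that restrains lymphocyte activation, stood at 91.0, 63.6, 102 and 73.9 FPKM in glucose-injected libraries, against 42.6, 41.4, 22.7 and 26.3 FPKM in PBS libraries (1.32 ± 0.17, adjusted p = 0.0185). Neither gene's groups overlapped, but the call of Sgk1 was lost in 7 and that of Stk17b in 5 of the 8 fits without 1 library (adjusted p 0.0582 to 0.122).

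The remaining genes are named here because their values were seen to pass. Ctla2a, a cathepsin inhibitor of activated T cells, rose by 0.96 ± 0.14 (adjusted p = 0.0317), and its near copy Ctla2b, with which it may share reads, had 0.72 ± 0.19 (adjusted p = 0.278). Taf7, a subunit of the general factor TFIID, rose by 0.72 ± 0.10, and Rrad, a GTPase of the Rad and Gem family, by 0.98 ± 0.14 (both adjusted p = 0.0323). Obfc2a, now Nabp1, a single-stranded DNA binding protein of DNA repair, rose by 0.79 ± 0.12 (adjusted p = 0.0466). Gm11428, now Wfdc17, stood at 142, 249, 215 and 163 FPKM in glucose-injected libraries, against 48.3, 60.6, 75.0 and 98.4 FPKM in PBS libraries (1.45 ± 0.21, adjusted p = 0.0349). Each of these 5 lost its call in at least 6 of the 8 fits that left out 1 library.

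Globin genes rose within each tag but not across all libraries. Hba-a1, an alpha-globin gene, stood at 48.6 and 65.0 FPKM after glucose and at 374 and 668 FPKM after glucose with lipid, against 164 and 134 FPKM in PBS replicates 1 and 2 and 21.3 and 20.5 FPKM in PBS replicates 3 and 4. Its glucose libraries were thus below PBS replicates 1 and 2, and the change of 1.57 ± 0.19 (adjusted p = 0.0115) rests on the tag block. The beta-globin gene Beta-s, now Hbb-bs, behaved alike, at 47.6, 62.5, 945 and 515 FPKM in glucose-injected libraries, against 201, 166, 24.4 and 19.4 FPKM in PBS libraries (1.61 ± 0.22, adjusted p = 0.0226). Without the tag block neither gene passed. Without glucose with lipid replicate 1 the log2 fold changes were 1.70 for Hba-a1 and 1.37 for Beta-s, and both passed. Hba-a1 lost its call without glucose replicate 2, PBS replicate 1 or PBS replicate 2 (adjusted p 0.0562 to 0.0709), and Beta-s without any of these or PBS replicate 4 (adjusted p 0.0679 to 0.11). Neither passed when the pairs of PBS libraries were crossed between the treatments.

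Nearly identical copies of the globin genes can trade reads. Hba-a2 had 12.1 to 752 FPKM in glucose-injected libraries and 7.32 to 83.8 FPKM in PBS libraries (0.92 ± 0.90, adjusted p = 0.722), Hbb-b1 0.11 ± 0.28 (adjusted p = 0.903) and Hbb-b2 -2.40 ± 1.06 (adjusted p = 0.438). The 14 erythroid markers summed to 1298 to 4338 FPKM in the glucose-injected libraries and to 1190 to 1905 FPKM in the PBS libraries. Of these, 13 lay above 0, against 48.7% of all genes, with a median of 1.0. Without glucose with lipid replicate 1 the median was 0.28. In RNA from a sorted population, more cells of a type and more RNA per cell cannot be told apart. The part of erythroid RNA in the globin result was not tested.

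The microRNA gene Mir5107 had 539 and 605 FPKM in the glucose libraries and 3431 and 945 FPKM in those with lipid, and was listed at 0 in all 4 PBS libraries (adjusted p = 3.31e-05). No fold is given against values of 0, which can be failed estimates in such files. The size of the fitted change was set by the pseudocount, at 9.99 with 1, 13.3 with 0.1 and 7.67 with 5. The gene spans only 88 bases and falls within Cd74, on its strand, and FPKM of so short a gene rests on few fragments. Cd74, the invariant chain of antigen presentation, stood at 281, 232, 709 and 359 FPKM in glucose-injected libraries, against 83.9, 158, 121 and 281 FPKM in PBS libraries, with overlap and without passing (1.29 ± 0.42, adjusted p = 0.347). Its log2 fold change without glucose with lipid replicate 1 was 0.93.

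Position could matter for other genes as well, since the kit does not keep strand and counting by strand is not stated. The genes Dusp5, Zfp36, Csrnp1 and Rrad are overlapped by antisense transcripts in GENCODE vM21, and the ends of Junb, Ppp1r15a and Dusp1 by neighbouring genes on the other strand, so that reads of such pairs cannot be told apart there. Taf7 lies within the span of protein-coding genes on the other strand, and Cdkn1a and Atf3 each contain a shorter entry on the other strand. Ctla2a, Csrnp1 and Dusp1 are overlapped by other entries on their own strand. Btg2 lies on chromosome 1 at 134075170 to 134079120, Fos on chromosome 12 at 85473890 to 85477273, Atf3 on chromosome 1 at 191170296 to 191218039 and Cd69 on chromosome 6 at 129267325 to 129275436 (GRCm38). All of these are protein-coding genes.

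In each treatment alone, all 32 genes lay above their PBS pair. The genes were called on the mean of these 2 differences, so this describes them and adds no support. Taken separately, 10 of the 32 passed for glucose against PBS replicates 3 and 4, 6 for glucose with lipid against PBS replicates 1 and 2, and the same 6 in both. Their median log2 fold change was 1.42 for glucose and 1.10 for glucose with lipid, with 21 genes higher for glucose and 11 higher with lipid. A larger difference for glucose was not always a higher level, since PBS replicates 3 and 4 were often the lower pair. Btg2 averaged 71.5 FPKM after glucose and 91.6 FPKM with lipid. Its PBS means were 14.4 FPKM in replicates 3 and 4 and 23.3 FPKM in replicates 1 and 2. Nr4a1 and Cd69 were higher after glucose in level as well, at 241 against 210 FPKM and 342 against 294 FPKM. The difference between the 2 effects was called for 0 of the 32 in the limma fit across all genes (adjusted p 0.301 to 0.993). It had an unadjusted p under 0.05 for 6 genes, with Nfkbiz, Plk2, Cd69, Cdkn1a and Ppp1r15a larger for glucose and Mir5107 larger with lipid. For Cdkn1a the change was 1.58 for glucose and 0.95 with lipid. A p that misses the threshold does not show that the treatments act alike, and in this design the lipid and the tag cannot be told apart. Across all genes tested, the 2 effects had a Pearson correlation of 0.081, given as a description over genes that are not independent.

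**Figure D4:**
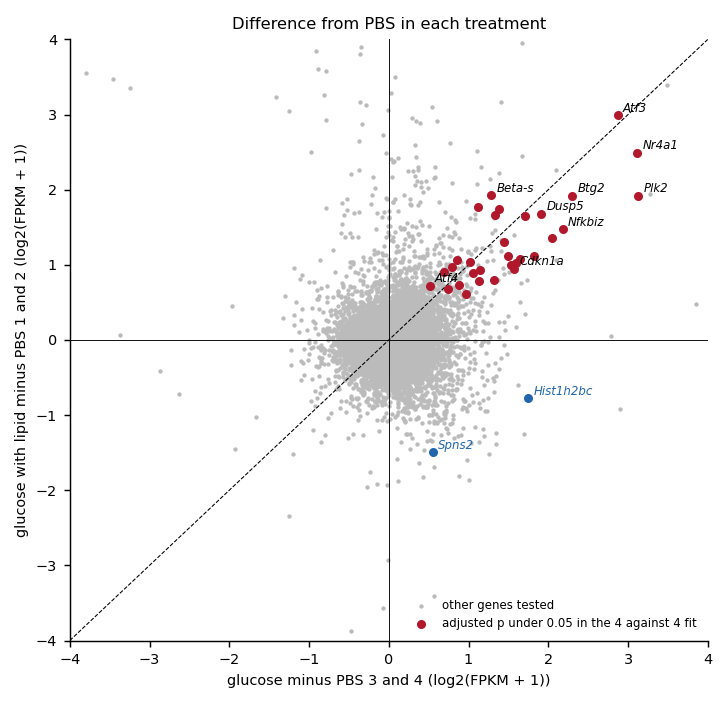
Log2 fold change of each gene for glucose against PBS 3 and 4 (x axis) and for glucose with lipid against PBS 1 and 2 (y axis), with the line of equal change dashed and 30 other genes outside the axes. The genes that rose, in red, lie in the upper right, with 21 below and 11 above the dashed line including Mir5107 outside the axes, while Hist1h2bc and Spns2, in blue, have opposite signs in the treatments.

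The difference of effects was called for 2 genes (0.0168%), both microRNA genes listed at 0 in 6 of 8 libraries. Mir3112, which spans 82 bases inside Cstf2 on chromosome X, was listed at 0 in all glucose-injected libraries and at 1619 and 1641 FPKM in PBS replicates 1 and 2 only. Mir3061, which spans 91 bases inside Ppp2ca on chromosome 11, was listed at 0 in all glucose-injected libraries and at 469 and 465 FPKM in PBS replicates 3 and 4 only. At an unadjusted p under 0.05 the difference was found for 1456 genes (12.2%), more than the 1360 of the main comparison. For some of these the PBS pairs differed and the glucose-injected libraries did not. The histone gene Hist1h2bc stood at 107, 77.5, 82.9 and 87.4 FPKM in glucose-injected libraries, against 153, 140.1, 22.6 and 31.01 FPKM in PBS libraries. Spns2, a transporter of sphingosine 1-phosphate, stood at 28.4, 37.4, 23.2 and 26.2 FPKM in glucose-injected libraries, against 74.2, 68.6, 19.9 and 24.1 FPKM in PBS libraries. For Hist1h2bc the glucose-injected libraries lay between the PBS pairs, and for Spns2 they did so except glucose with lipid replicate 1, which was below PBS replicate 4. The pooled changes were 0.49 ± 0.44 for Hist1h2bc and -0.47 ± 0.36 for Spns2 (adjusted p = 0.698 and 0.636).

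No gene fell. The genes named here for that direction did not pass. Among genes with established names that averaged 3 FPKM or more and were separated within each tag, they had the smallest unadjusted p. They included Hsp90aa1, the inducible HSP90 chaperone, at 89.2, 74.8, 74.6 and 72.0 FPKM in glucose-injected libraries, against 95.5, 102, 140.3 and 107 FPKM in PBS libraries (-0.50 ± 0.11, adjusted p = 0.157). All 4 glucose-injected libraries lay below all 4 PBS libraries for Hsp90aa1, but separation within each tag was a condition of being named. The readthrough transcript Raver1-fdx1l stood at 3.99, 1.47, 6.08 and 3.35 FPKM in glucose-injected libraries, against 10.5, 10.03, 11.03 and 9.35 FPKM in PBS libraries (-1.35 ± 0.26, adjusted p = 0.126). Also in that group were Rab34, a small GTPase of the cilium and Golgi (-0.77 ± 0.16, adjusted p = 0.157), Eme1, a subunit of a DNA repair nuclease (-0.61 ± 0.13, adjusted p = 0.168), and Pop1, a subunit of ribonuclease P (-0.64 ± 0.14, adjusted p = 0.176). Alg8, a glucosyltransferase of protein glycosylation (-0.40 ± 0.09, adjusted p = 0.182), Tmem33, a membrane protein of the endoplasmic reticulum (-0.51 ± 0.12, adjusted p = 0.192), and Etf1, the translation release factor (-0.46 ± 0.11, adjusted p = 0.194), were the others.

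Broader programmes were read through lists, of which 37 covered functions and cell identity and 7 covered markers of other cells. A called gene was present in 12 of these 44 lists. As the lists share members and were chosen with earlier results known, these counts are not independent of each other or of the data. The list of genes induced by tissue dissociation and sorting held 12 of the 32 genes: Nr4a1, Nfkbiz, Btg2, Atf3, Klf6, Junb, Ppp1r15a, Fos, Zfp36, Ier2, Klf2 and Dusp1. These are 12 of its 31 tested members, against 0.268% of all genes that rose. Of the 31, 24 lay above 0, against 48.7% of all genes. At an unadjusted p under 0.05, 20 were higher, against 6.18% of all genes, and 5 lower, against 5.22%. For 18 members, all 4 glucose-injected libraries lay above all 4 PBS libraries, against 3.55% of all genes. The 5 lower ones were the chaperones Hsp90aa1, Hsph1 (-0.55), Hsp90ab1 (-0.28), Dnaja1 (-0.37) and Hspa8 (-0.32). The time between harvest, sorting and lysis is not among the labels, and the part of handling in the immediate early result was not tested.

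**Figure D5:**
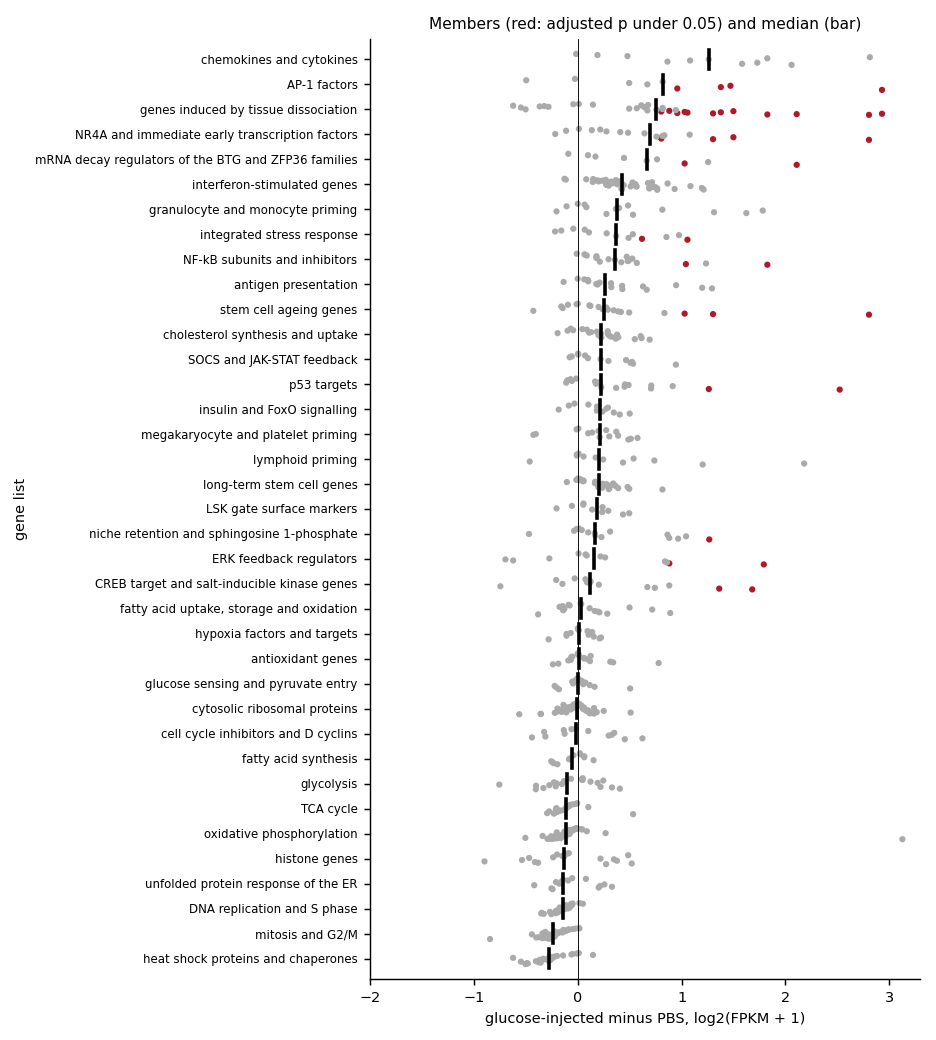
Log2 fold change (glucose-injected minus PBS) of each tested member of 37 gene lists, sorted by median. Grey points did not pass, red points had an adjusted p under 0.05, and bars mark medians, which run from -0.28 for heat shock proteins to 1.26 for chemokines.

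Chemokine and cytokine genes had the highest median of the lists other than those of markers, 1.26 over 11 members. In this list 0 passed, and 8 were higher at an unadjusted p under 0.05, against 6.18% of all genes. The neutrophil attractant Cxcl2 stood at 3.05, 6.07, 18.2 and 5.47 FPKM in glucose-injected libraries, against 0.324, 2.13, 0.688 and 0.682 FPKM in PBS libraries (2.06 ± 0.41, adjusted p = 0.13). Ccl4, a chemokine of activated lymphocytes and macrophages, stood at 378, 781, 319 and 580.0 FPKM in glucose-injected libraries, against 187, 225, 99.9 and 159 FPKM in PBS libraries (1.58 ± 0.32, adjusted p = 0.136). Its neighbour Ccl3 had 1.26 ± 0.35 (adjusted p = 0.278). Leaving out glucose with lipid replicate 1, which held the most Cxcl2, gave a change of 1.67 for that gene. Of the list, 6 members had no overlap between groups in the higher direction, as had 3.55% of all genes. Without glucose with lipid replicate 1, the median was 1.30, and Ccl4 passed at 1.86 (adjusted p = 0.0391).

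In the interferon-stimulated list 41 of 43 members had a log2 fold change above 0, against 48.7% of all genes, and the median was 0.43. At an unadjusted p under 0.05, 24 were higher, against 6.18% of all genes, but 0 passed. The transcription factor gene Irf1 stood at 184, 169, 266 and 271 FPKM in glucose-injected libraries, against 149.5, 143, 87.1 and 143 FPKM in PBS libraries (0.77 ± 0.14, adjusted p = 0.108). Without PBS replicate 4 it passed (adjusted p = 0.0054). Ifit3, an antiviral effector, had 1.70 to 5.09 FPKM in glucose-injected libraries and 0.317 to 1.25 FPKM in PBS libraries (1.21 ± 0.28, adjusted p = 0.2). Without glucose with lipid replicate 1 the change of Ifit3 was 0.97 and the median of the list was 0.44. That median was 0.43 for glucose and 0.52 with lipid taken separately. Of 18 antigen presentation genes 16 lay above 0, against 48.7% of all genes, with a median of 0.26. Among the SOCS genes, which shut off cytokine receptors, 0 of 13 passed, 4 were higher at an unadjusted p under 0.05 and the median was 0.22. Socs3 stood at 5.74 to 13.3 FPKM in glucose-injected libraries and 3.05 to 6.03 FPKM in PBS libraries (0.94 ± 0.18, adjusted p = 0.108).

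Markers of other cells did not all move with the treatment. Neutrophil markers had a median of 1.46 over 12 tested members, which was -0.80 without glucose with lipid replicate 1, and monocyte and macrophage markers a median of 0.81 over 11, which was 0.12 without it. B and plasma cell markers summed to 78.8 to 231 FPKM in the glucose-injected libraries and to 50.7 to 68.4 FPKM in the PBS libraries, without overlap. All 6 tested B cell markers lay above 0, against 48.7% of all genes. Their median was 0.70, which was 0.43 without glucose with lipid replicate 1. The filter on low values partly set this count and adds no support to it. Blnk, a member of the list, reached 1 FPKM only in glucose with lipid replicates 1 and 2, at 5.15 and 2.03 FPKM. Of the defining B cell genes, Pax5 was listed at 0 in 7 of the 8 libraries and Cd79a stayed under 1 FPKM except in glucose with lipid replicate 1, where it was at 19.1 FPKM. T and NK cell markers summed to 426 to 554 FPKM in glucose-injected libraries and 408 to 543 FPKM in PBS libraries, stromal and endothelial markers to 51.4 to 71.7 FPKM in glucose-injected libraries and 44.3 to 59.6 FPKM in PBS libraries, and mast cell and basophil markers to 38.1 to 357 FPKM in glucose-injected libraries and 29.0 to 229 FPKM in PBS libraries. The 10 tested mast cell and basophil markers had a median log2 fold change of -0.37, which was -0.80 without glucose with lipid replicate 1. The stromal gene Bglap was listed at 0 in all libraries. The part of these cells in the chemokine and interferon values was not tested.

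Chaperone genes had the lowest median of the lists other than those of markers, -0.28, with 22 of 24 below 0, against 6123 of all 11931 genes. At an unadjusted p under 0.05, 13 were lower, against 5.22% of all genes. The median was -0.43 for glucose and -0.09 with lipid. Hspe1, a mitochondrial cochaperonin, stood at 139.6, 105, 110.1 and 104 FPKM in glucose-injected libraries, against 134, 143, 223 and 154 FPKM in PBS libraries (-0.49 ± 0.14, adjusted p = 0.278). Chordc1, a partner of HSP90, had -0.48 in each treatment (pooled -0.48 ± 0.13, adjusted p = 0.265). No chaperone gene passed.

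Genes of cell division had medians below 0. In the list of mitosis and G2/M, 34 of 36 were below 0, against 6123 of all 11931 genes. At an unadjusted p under 0.05, 10 were lower, against 5.22% of all genes. The median was -0.24, at -0.10 for glucose and -0.33 with lipid. Bub1, a kinase of the spindle checkpoint, stood at 9.03, 6.89, 14.0 and 8.66 FPKM in glucose-injected libraries, against 25.8, 19.7, 18.04 and 10.4 FPKM in PBS libraries (-0.85 ± 0.21, adjusted p = 0.232). Ncapd2, a condensin subunit, had -0.28 ± 0.08 (adjusted p = 0.278). Genes of DNA replication and S phase were below 0 for 34 of 36 with a median of -0.14, which was -0.28 for glucose and 0.01 with lipid, and 4 were lower at an unadjusted p under 0.05. No gene of these lists passed.

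No gene of energy metabolism passed. Of 69 genes of oxidative phosphorylation 64 lay below 0, against 6123 of all 11931 genes. Yet the median was -0.12, at -0.24 for glucose and 0.03 with lipid. The unadjusted p was under 0.05 for 6 lower genes, against 5.22% of all genes, and 1 higher gene, against 6.18%. Cox7b, a subunit of complex IV, had -0.25 ± 0.08 (adjusted p = 0.327). The higher gene, Ndufs5, had the smallest unadjusted p of the list and did not pass (3.13 ± 0.77, adjusted p = 0.23). It stood at 0.0019, 11.7, 20.2 and 20.9 FPKM in glucose-injected libraries, against 0.0030 to 0.0039 FPKM in PBS libraries. Of 21 TCA cycle genes 19 lay below 0 with a median of -0.12, and 4 were lower and 1 higher at an unadjusted p under 0.05. The 20 glycolysis genes had a median of -0.10, with 2 lower and 3 higher by the same measure. Their median was -0.31 for glucose and 0.13 with lipid, and -0.23 in the pooled comparison without glucose with lipid replicate 1.

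No gene of glucose sensing passed, at 1 higher and 1 lower with an unadjusted p under 0.05. Txnip, which is induced by glucose in many cell types through the factor MondoA, stood at 138, 178, 169 and 236 FPKM in the glucose-injected libraries, against 169, 224, 132 and 161 FPKM in the PBS libraries. The groups overlapped throughout, and the 95% interval of the log2 fold change ran from -0.26 to 0.40 around 0.07 (adjusted p = 0.881). Of the 14 genes of glucose sensing and pyruvate entry 7 lay above and 7 below 0, with a median of 0.00. Pdk3, one of the kinases that limit pyruvate entry into mitochondria, had -0.18 ± 0.07 (adjusted p = 0.404), and Pdk2 0.50 ± 0.22 (adjusted p = 0.423). The labels do not give the hours between the last injection and the harvest on day 8.

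Lipid genes were read for a change common to both treatments. In the list of cholesterol synthesis and uptake 19 of 23 members were above 0, against 48.7% of all genes, and the median was 0.23. At an unadjusted p under 0.05, 9 were higher, against 6.18% of all genes, and 0 passed. Insig1, which holds the sterol sensor in the endoplasmic reticulum, stood at 28.3, 33.5, 30.6 and 37.97 FPKM in glucose-injected libraries, against 15.9, 19.4, 20.4 and 23.9 FPKM in PBS libraries (0.69 ± 0.14, adjusted p = 0.143). Fdft1, which makes squalene, stood at 16.3 to 20.0 FPKM in glucose-injected libraries and 10.8 to 14.6 FPKM in PBS libraries (0.55 ± 0.12, adjusted p = 0.191). The groups did not overlap for either gene. Fatty acid synthesis and fatty acid uptake, storage and oxidation had medians of -0.06 and 0.03.

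Stem and progenitor identity genes had medians above 0. Of 32 long-term stem cell genes 30 were above 0, against 48.7% of all genes, with a median of 0.20, while 4 were higher at an unadjusted p under 0.05 and 0 passed. Procr, the surface protein EPCR of the most primitive cells, stood at 81.6, 86.5, 62.5 and 99.5 FPKM in glucose-injected libraries, against 44.4, 70.6, 58.6 and 59.2 FPKM in PBS libraries (0.50 ± 0.17, adjusted p = 0.35). Flt3, a receptor of multipotent and lymphoid-primed progenitors, stood at 215, 245, 181 and 239 FPKM in glucose-injected libraries, against 167, 169, 131 and 182 FPKM in PBS libraries (0.44 ± 0.13, adjusted p = 0.327). The groups overlapped at their edges. Granulocyte and monocyte priming genes had a median of 0.38, which was -0.04 without glucose with lipid replicate 1, and megakaryocyte priming genes one of 0.21. Plek, a platelet and leukocyte protein of the megakaryocyte list, stood at 40.5 to 44.8 FPKM in glucose-injected libraries and 28.1 to 34.9 FPKM in PBS libraries (0.49 ± 0.09, adjusted p = 0.119). Of 21 stem cell ageing genes 3 rose, against 0.268% of all genes, and the median was 0.25. These were Nr4a1, Klf6 and Zfp36, which are also on the list of genes induced by tissue dissociation and sorting. Klf6 and Zfp36 lost their calls when some single libraries were left out. Cytosolic ribosomal protein genes, a group with many near copies, had a median of -0.01 over 47 members.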

How the data were processed

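Per the labels' protocols, RNA of about 10000 sorted LSK cells was amplified with SMART-Seq HT and made into Nextera XT libraries, which do not keep strand. Per the submitters' processing notes, reads were mapped to mm10, with Cuffnorm 2.2.1, TopHat2 2.0.13, SAMtools 1.0 and Bowtie2 2.2.3 among the tools. Which annotation and scaling Cuffnorm used is not given in the sources used here. The deposited values were FPKM per gene symbol, 1 file per library, taken as FPKM from Cuffnorm's naming and their range, with no fragment counts in the files used.

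Values were transformed to log2(FPKM + 1), and genes at 1 FPKM or more in at least 2 libraries were kept. All 8 libraries entered 1 fit in limma 3.58.1 (R 4.3.3), with a mean-variance trend, the tag as a block and 5 residual and 3.86 prior degrees of freedom. Effects in each treatment and their difference came from a fit of the 4 tag-by-treatment groups, with 4 residual and 3.73 prior degrees of freedom. The pairing of PBS libraries with treatments is inferred from column names, and the pooled estimate does not depend on it. Tests were 2-sided, with Benjamini-Hochberg adjustment and a threshold of 0.05. The genes, the 44 lists (914 memberships) and the tests were chosen with earlier results of these data known. The text names up to 15 genes per direction with the largest change that passed, averaged 3 FPKM or more and were separated within each tag. Where fewer than 8 passed, genes with the smallest p under the same level and separation rules filled the places. It also names up to 4 members that passed in each list. For lists where 0 passed, it names some but not all of the 2 members with the smallest p. Further names are 3 genes per direction with the smallest p for the difference of effects, 9 genes picked from the study's subject, and Mir5107. Other genes are named as chosen after their values were seen, among them B cell markers and chaperones of the dissociation list. The main fit was also run on simulated data with independent noise and known changes added. Those data held no deviant library and no correlation between genes, so they do not show how the fit behaves with either.

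Depth was estimated from the smallest steps between FPKM values of genes with transcripts of at least 2000 bases, with no counting intervals. Positions are from GENCODE vM21 (GRCm38, the same assembly as mm10), and promoters from RefSeq (GRCm38.p6). Alternatives covered the pseudocount, the filter, the scaling, the model and each library left out. Tables and figures used matplotlib 3.10.9, pandas 2.3.3 and numpy 2.4.6 under Python 3.11.15.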

Additional observations from a re-analysis of the deposited data

Results flagged for a closer look

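Single libraries stood apart from the other 3 of their 4, by a gap beyond Dixon's 95% critical value, for 16 of the values of named genes. Chance alone would set apart about 1 in 20 groups of 4, and both the glucose-injected and the PBS groups of 116 named genes were searched. The count of 16 is therefore not far from what chance would give, and the libraries below are listed as a description. Among the glucose-injected libraries, glucose with lipid replicate 1 was the highest for Mir5107 (3431 FPKM), Gadd45a (23.2 FPKM) and Hba-a2 (752 FPKM), glucose with lipid replicate 2 for Ppp1r15a (188 FPKM) and Egr1 (535 FPKM), and glucose replicate 1 for Hsp90aa1 (89.2 FPKM), Hspe1 (139.6 FPKM) and Dnaja1 (34.4 FPKM). Among the PBS libraries, replicate 1 was the highest for Nr4a1 (47.0 FPKM) and Plek (34.9 FPKM), replicate 2 for Rb1 (2.93 FPKM), and replicate 4 for Fosb (7.36 FPKM). PBS replicate 3 was the lowest for Zfp36 (181 FPKM) and Irf1 (87.1 FPKM) and the highest for Ier2 (339 FPKM) and Etf1 (51.4 FPKM).

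The effects of glucose with lipid and of glucose differed by the limma test of the difference itself for Mir3061 (8.87 on the log2 scale) and Mir3112 (-10.67). Each was listed at 0 in all 4 glucose-injected libraries and in 1 of the PBS pairs, so the sizes depend on the pseudocount of 1.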

How the results depend on the processing

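The 32 genes that rose had a log2 fold change above 0 in every one of 21 settings that tested them. Of these, 9 passed in all 19 settings that pooled the treatments (Nr4a1, Plk2, Btg2, Cdkn1a, Sik1, Dusp5, Nfkbiz, Nfkbid and Cd69). Calls numbered 31 to 33 higher and 0 lower with a pseudocount of 0.1 or 5, other scalings, array weights or 1 FPKM required in all libraries. They numbered 16 higher and 1 lower without the filter, 19 higher and 1 lower without the mean-variance trend, 25 without the tag block, 11 higher and 1 lower for glucose alone, and 7 higher and 2 lower for glucose with lipid alone. With each library left out, 12 (without glucose replicate 2) to 32 genes were higher and 0 to 3 lower, and the difference of effects was called for 2 to 138 genes (138 without glucose with lipid replicate 2, 6 without glucose replicate 2, 4 without PBS replicate 1). The tagged libraries of glucose with lipid and PBS share the letters H and I in their column names, which the main fit did not use. With these letters as a block, 28 genes were higher and 25 of the 32 were among them. Libraries with the same letter deviated together with a correlation of 0.066 over only 2 pairs. With treatments and PBS pairs crossed, 26 were higher. With 1 library left out, Txnip ran from -0.0176 to 0.18 (negative without glucose replicate 2, glucose with lipid replicate 2 or PBS replicate 1, at -0.0084, -0.0176 and -0.0024), Hba-a2 from -0.13 (without glucose with lipid replicate 1) to 1.96, and Hbb-b1 from -0.081 (the same library) to 0.43, with -0.0185 without PBS replicate 2. The sign also turned for Hbb-b1 (-0.49) and Spns2 (0.55) with glucose alone, and for Hist1h2bc (-0.78) and Hbb-b2 (0.37) with glucose and lipid alone. The cause of these turns was not tested. Over 116 named genes and 21 settings, 2190 of 2421 values kept direction and side of the threshold, 205 lost a call, 16 gained one and 10 turned. Of 945 list medians under these settings 53 moved by more than the SD between the glucose-injected libraries, 10 of them for the NR4A and immediate early factors (0.27 with a pseudocount of 5 to 0.78 with 0.1). With at most 4 libraries per arm and no fragment counts, low genes such as Atf3 and Fosl2 in PBS rest on few fragments.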
